A study of Mus musculus with 9 samples.

Results

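The genes described here encode the matrix metalloproteinases (Mmp), the ADAMTS proteases (a disintegrin and metalloproteinase with thrombospondin motifs), the ADAMTS-like proteins and the tissue inhibitors of metalloproteinases (Timp). Members were chosen by gene symbol, with earlier results of these data known. This gave 51 of the 30579 genes in the deposited table: 23 Mmp, 19 Adamts, 5 Adamtsl and 4 Timp genes. The RNA came from mesenchymal stromal cells, which support blood formation in the marrow, sorted from mouse long bones. Libraries labelled aged Thbs1 knockout came from mice 18 months old, aged controls were also 18 months old, and young controls were 3 months old, with 3 libraries in each group. Thbs1 encodes the matrix protein thrombospondin-1. All mice had received antibody to VE-cadherin, which marks vessels, 10 minutes before they were killed, and each library started from 2 ng of RNA (SMART-Seq v4). The kind of allele, the strain, the sex and the sort gates are not given in the sources used. Nor is it stated whether each library was a separate mouse, so the p-values cover the spread between libraries, which may be technical.

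Values were FPKM, mapped fragments scaled to transcript length and library size, so levels can be compared between genes. The step between low values put depth at 17.7 to 27.5 M (mega) reads, with 10 to 40 M searched, and 3 reads for a gene of 2 kb came to 0.0546 to 0.0848 FPKM. This floor covers counting error only. Markers of marrow stromal cells were present in every library. All 10 passed the filter on low values, and Cxcl12 lay between 2873 and 6044 FPKM. Thbs1 itself did not separate the labelled knockout. It was at 24.28, 44.55 and 37.05 FPKM in the labelled-knockout libraries and at 35.56, 41.89 and 36.85 FPKM in aged controls (exact two-sided permutation p = 0.9, with 0.1 the smallest that 3 against 3 libraries allow), so that group is called by its label throughout. Replicate 2 of the labelled-knockout libraries stood apart, with correlations of 0.738 to 0.811 across genes to the other 8 libraries and 13503 genes above 0, the fewest of any library. Immunoglobulin genes took 0.162%, 19.2% and 2.36% of estimated reads in the labelled-knockout libraries, 21.6%, 4.27% and 31.9% in aged controls, and 0.00383%, 0.0103% and 0.170% in young controls. FPKM are relative to a library's own reads, so reads taken by these genes lower the values of all others. In such bulk samples, fewer cells of a type and less RNA per cell cannot be told apart. Unless stated otherwise, values are given in the order of replicates 1, 2 and 3.

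Matrix metalloproteinases are zinc enzymes that are made as inactive proenzymes and, once activated, cut collagens, proteoglycans and other matrix proteins. ADAMTS proteases cut aggrecan and versican, remove the N-terminal propeptides of fibrillar procollagens or process other matrix proteins, while the related ADAMTS-like proteins lack the protease domain. TIMPs bind the active site of these enzymes and block it. In bone, MMP-13 made by osteoblasts and hypertrophic chondrocytes and MMP-9 made by osteoclasts are known for the removal of cartilage and bone matrix.

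Many MMP genes lie side by side. In the GENCODE M21 annotation of GRCm38, 10 of the 23 MMP genes were within 427072 bases of mouse chromosome 9, from 7272514 to 7699585, in the order Mmp13, Mmp12, Mmp1b, Mmp3, Mmp1a, Mmp10, Mmp8, Mmp27, Mmp20 and Mmp7. Promoter windows, from 250 bases before to 50 after each annotated start, were taken from RefSeq on GRCm38.p6 and were found for 36 of the 51 members, including all 10 of these. Both strands were searched for TGANTCA, a match to the motif bound by AP-1 factors, and for TGTGGT, a match to the core motif bound by Runx factors. TGANTCA was present in at least 1 window of 8 of the 10 cluster genes and in none of the 27 windows of members elsewhere in the genome, against 7.81% of all 32851 windows. TGTGGT was present in windows of 4 cluster genes and of 2 other members, Mmp14 and Mmp23, against 16.8% of all windows, and it overlapped no TGANTCA match. A match is a description of the sequence and not evidence of binding.

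The whole windows of Mmp13, the most abundant member, and Mmp3, the neighbour whose level varied most, are printed 5′ to 3′ on the strand of the gene, with the TGANTCA match in capitals.
Mmp13, chr9:7272264-7272563, forward strand: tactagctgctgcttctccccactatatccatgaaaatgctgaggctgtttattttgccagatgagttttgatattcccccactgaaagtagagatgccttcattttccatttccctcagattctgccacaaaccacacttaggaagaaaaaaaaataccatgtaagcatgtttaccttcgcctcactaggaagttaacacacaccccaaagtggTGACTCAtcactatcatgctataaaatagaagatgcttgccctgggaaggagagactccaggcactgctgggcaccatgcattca
Mmp3, chr9:7445572-7445871, forward strand: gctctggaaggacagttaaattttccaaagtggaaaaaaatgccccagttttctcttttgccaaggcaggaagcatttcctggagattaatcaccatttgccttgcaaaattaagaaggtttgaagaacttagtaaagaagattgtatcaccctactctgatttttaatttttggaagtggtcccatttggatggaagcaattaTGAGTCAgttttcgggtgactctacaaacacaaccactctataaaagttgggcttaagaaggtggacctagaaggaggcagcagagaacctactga
For the other 6 cluster genes, 61 bases with the match are shown, so that its surroundings can be compared.
Mmp12, chr9:7347303-7347363, forward strand: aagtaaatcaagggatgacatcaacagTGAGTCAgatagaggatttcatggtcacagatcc
Mmp1b, chr9:7388086-7388146, reverse strand: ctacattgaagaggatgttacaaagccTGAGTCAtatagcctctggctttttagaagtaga
Mmp1a, chr9:7464041-7464101, forward strand: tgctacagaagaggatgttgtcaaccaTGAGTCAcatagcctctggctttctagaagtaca
Mmp10, chr9:7502252-7502312, forward strand: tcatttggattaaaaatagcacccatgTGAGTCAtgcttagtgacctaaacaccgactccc
Mmp20, chr9:7628109-7628169, forward strand: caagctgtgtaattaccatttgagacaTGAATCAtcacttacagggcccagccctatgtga
Mmp7, chr9:7692000-7692060, forward strand: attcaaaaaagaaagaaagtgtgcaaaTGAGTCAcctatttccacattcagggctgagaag
The match began 35 bases before the RefSeq start of Mmp13 and 46 before that of Mmp3, and between 44 and 95 before the starts of the other 6. Mmp13 also held TGTGGT on the opposite strand, 118 bases before its start, and Mmp3 held none. The same motif thus stood before genes at very different levels, from Mmp13 at a mean of 478.8 FPKM over the 9 libraries to Mmp1b and Mmp7, which were listed at 0 in all of them.

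**Figure D1:**
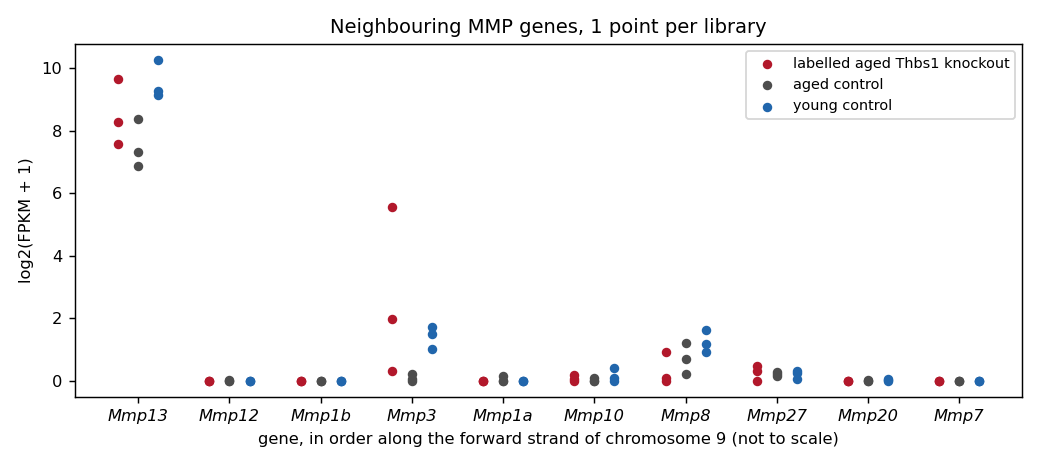
Level of the 10 neighbouring MMP genes, as log2(FPKM + 1), in their order along chromosome 9 (not to scale), with 1 point per library coloured by group. Mmp13 stands above its neighbours in every library, Mmp3 is next with a mean of 6.06 FPKM, and the points of Mmp1b and Mmp7 lie at 0.

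Mmp13, an interstitial collagenase that cuts fibrillar collagen, was the highest member in all 9 libraries. It made up 38.7% of the mean FPKM summed over members and ranked at 76 of the 11988 genes tested. Timp2 followed at a mean of 157 FPKM and Adamts1 at 131 FPKM. Mmp23 (67.9 FPKM), Timp1 (66.6 FPKM), Adamts2 (57.2 FPKM) and Mmp14 (54.5 FPKM) came next, and neighbours in this order changed places between libraries. The 10 most abundant members, which also included Mmp2, Mmp9 and Mmp11, held 90% of the sum.

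**Figure D2:**
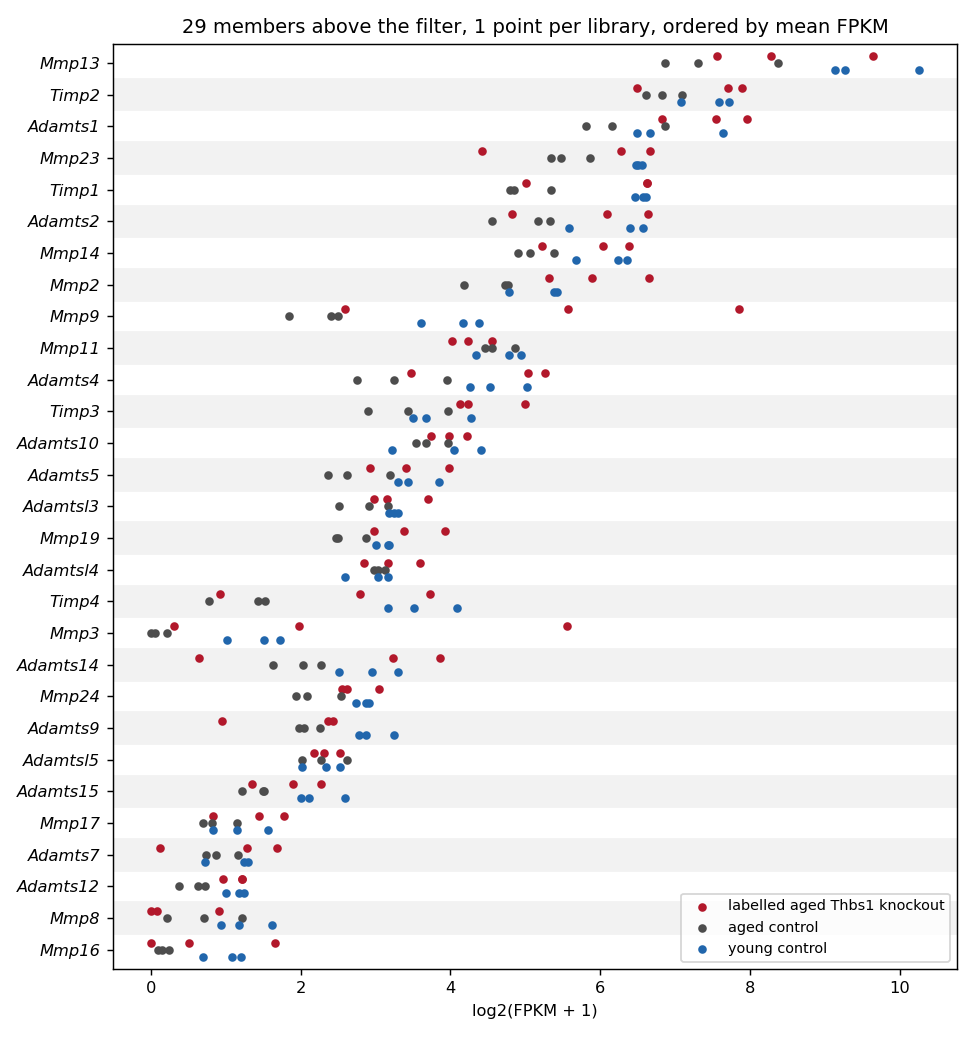
Level of each of the 29 members that passed the filter, as log2(FPKM + 1), with 1 point per library coloured by group and genes ordered by mean FPKM. Mmp13 is at the top, and for most members the aged controls lie to the left of the young controls.

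The filter on low values asked for 3 or more libraries at 1 FPKM or above and left 29 of the 51 members: 12 Mmp, 10 Adamts, 3 Adamtsl and 4 Timp genes. Of the 22 others, Mmp1b and Mmp7 were listed at 0 in all libraries, 7 stayed under 0.1 FPKM in every library, and 17 were listed at 0 in replicate 2 of the labelled knockout. The highest value of any of them was 1.52 FPKM, for Adamtsl1 in aged control replicate 2. A value of 1.15 FPKM for Adamts19 stood in labelled-knockout replicate 2 alone, where the other 8 libraries held at most 0.07 FPKM. Both genes are named because of these values.

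No member passed an adjusted p of 0.05 in limma in any of the 3 comparisons, although most lay below the young level in aged controls and above the aged level in the labelled knockout. In aged against young controls, 27 of 29 fold changes were below 0, beside 8930 of all 11988 genes. The members' median was −0.66 on the log2(FPKM + 1) scale, while the median over all genes was −0.28. With median-ratio rescaling 23 of 29 were below 0, and with immunoglobulin genes left out at a fixed FPKM sum 11 of 31 were, with a median of 0.13 beside 0.61 over all genes. In the labelled knockout against aged controls, 26 of 29 were above 0, beside 6678 of all 11988 genes. The members' median was 0.56, beside 0.07 over all genes. The same alternatives gave 22 of 29 and 17 of 31 above 0, the second with a median of 0.10 beside −0.53 over all genes. Both comparisons share the aged controls, so that their directions are not independent. At an unadjusted p under 0.05, 11 members were lower and 0 higher in aged than in young controls (limma), where 15.7% and 5.96% of all genes were. Against aged controls, 11 were higher and 0 lower in the labelled knockout, where 12.5% and 7.30% of all genes were. Beside the 0 members called after adjustment, 1.47% of all genes were lower and 2.57% higher in aged than in young controls, 4.04% in all. For the labelled knockout against aged controls, 1.52% were higher and 1.96% lower, 3.48% in all, and 19.8% had an unadjusted p under 0.05 in either direction.

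All 3 aged controls lay below all 3 young controls for 19 of the 29 members, against 37.4% of all genes, and no member had the opposite order, which 7.02% of all genes had. Of the labelled-knockout libraries, all 3 lay above all aged controls for 7 members, against 16.6% of all genes, and below them for 0, against 6.54%. After rescaling by the median ratio over genes, the members' median in aged against young controls was −0.35, beside 0.02 over all genes. For the labelled knockout against aged controls it was 0.41, beside −0.09. By family, the medians in aged against young controls were −0.74 for MMPs, −0.81 for ADAMTS, 0.01 for ADAMTS-like genes and −1.08 for TIMPs. Leaving out immunoglobulin genes at a fixed FPKM sum turned them to 0.087, −0.034, 0.87 and −0.043, beside 0.61 over all genes. Scaling by reads instead, chosen after seeing the data, gave −0.40, −0.57, 0.33 and −0.77, beside −0.02 over all genes. The labelled knockout against aged controls gave 0.66, 0.58, 0.16 and 1.05. Without immunoglobulin genes these were 0.099, 0.034, −0.51 and 0.41 at a fixed FPKM sum, and 0.52, 0.46, −0.078 and 0.86 scaled by reads.

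The calls depended on a single library. Without labelled-knockout replicate 2, 13 members passed as lower in aged than in young controls (limma adjusted p, 17.9% of all genes lower and 5.17% higher): Mmp9, Mmp13, Mmp14, Mmp23, Mmp24, Adamts2, Adamts4, Adamts9, Adamts12, Adamts14, Adamts15, Timp1 and Timp4. In the same fit, 12 passed as higher in the labelled knockout than in aged controls (11.5% of all genes higher and 4.48% lower): Mmp2, Mmp3, Mmp9, Mmp14, Mmp23, Adamts1, Adamts2, Adamts4, Adamts12, Adamts14, Timp2 and Timp4. With median-ratio rescaling as well, the same omission called only Timp4 in aged against young controls and 6 members in the labelled knockout against aged controls, Mmp2, Mmp3, Mmp9, Adamts4, Adamts14 and Timp4. The p-values given below without replicate 2 are without that rescaling. The fold changes of aged against young controls do not use that library, and only their error, shared by all groups, was smaller without it. Without labelled-knockout replicate 1, Timp1 and Timp4 passed in aged against young controls (adjusted p = 0.0121 and 0.0373) and Timp1 in the labelled knockout against aged controls (adjusted p = 0.0315). No member passed when any other library was left out. Mmp3, Mmp24 and Adamts14 were described in detail after their values were seen.

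**Figure D3:**
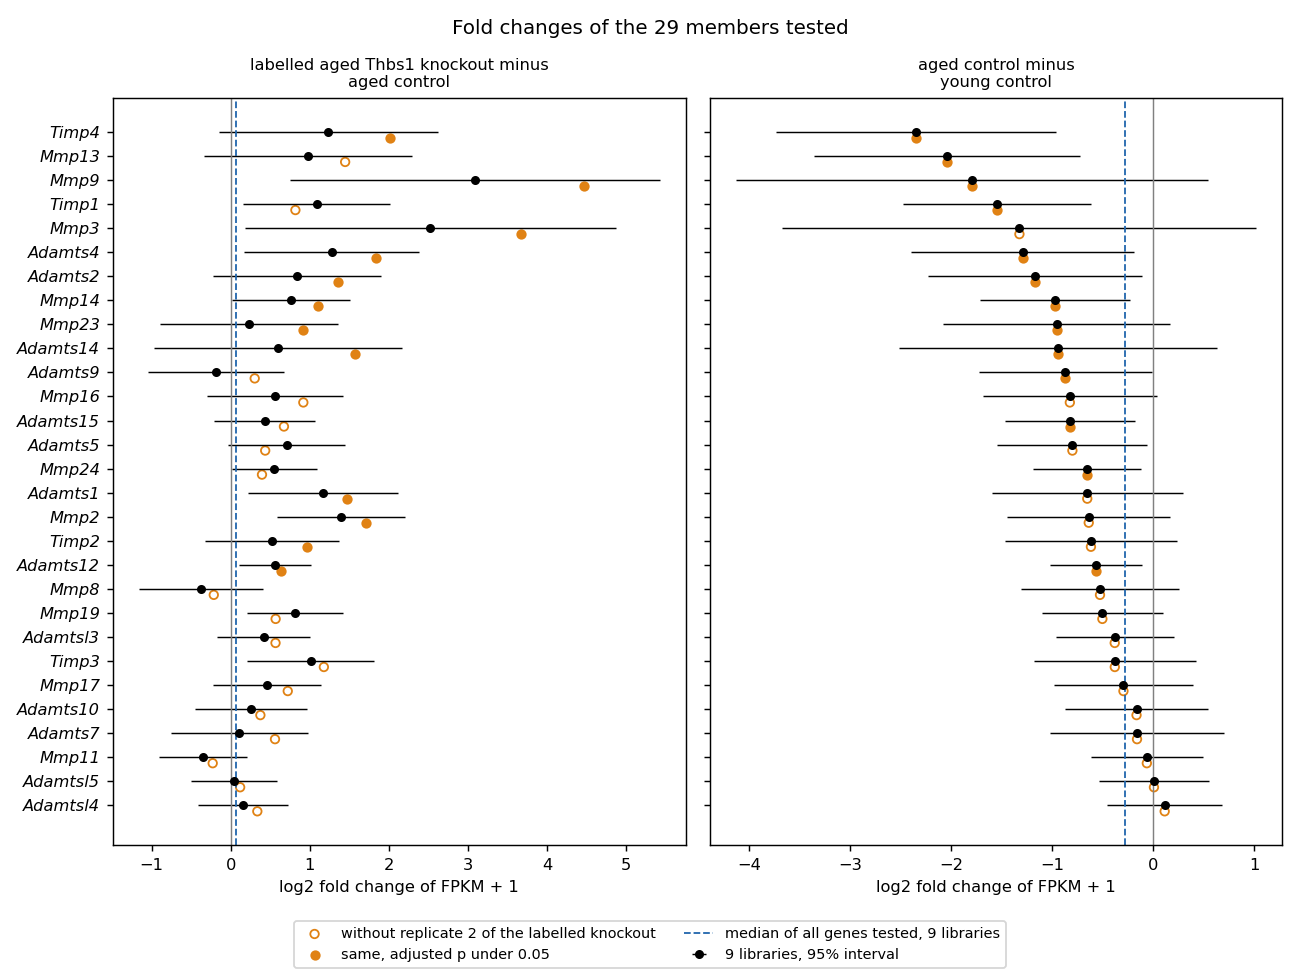
Log2 fold change of FPKM + 1 for each of the 29 members tested, labelled knockout minus aged control on the left and aged minus young control on the right. Black points with 95% intervals use 9 libraries, orange points leave out labelled-knockout replicate 2 (filled where the adjusted p is under 0.05), and the dashed line is the median of all genes. Most points lie right of the dashed line on the left and left of it on the right.

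Gene coordinates are from GENCODE M21 on GRCm38. Among the collagenases, Mmp13 (ENSMUSG00000050578.10, chr9:7272514-7283331, forward strand) was at 310.29, 188.43 and 799.21 FPKM in the labelled-knockout libraries, at 157.53, 332.03 and 115.23 FPKM in aged controls, and at 1225.80, 564.65 and 616.23 FPKM in young controls. Every aged control lay below every young control, and the labelled-knockout values overlapped with both. The fold change of aged against young controls was −2.04 on the log2 scale (SE 0.58, limma adjusted p = 0.0882, and 0.0226 without labelled-knockout replicate 2). For the labelled knockout against aged controls it was 0.98 (SE 0.58, adjusted p = 0.387). Mmp8, the neutrophil collagenase, stayed at or under 2.06 FPKM, with 0.06, 0.00 and 0.88 FPKM in the labelled knockout, 1.32, 0.16 and 0.63 FPKM in aged controls, and 0.91, 1.25 and 2.06 FPKM in young controls. The values of the labelled knockout were all below those of young controls. The mouse counterparts of human MMP1, Mmp1a and Mmp1b, were at most at 0.10 FPKM.

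The gelatinases, which cut denatured collagen and basement membrane collagen, were higher in every labelled-knockout library than in any aged control. Mmp2 (ENSMUSG00000031740.8, chr8:92827291-92853420, forward strand), made by stromal cells, was at 58.40, 38.80 and 99.53 FPKM in the labelled knockout, 26.30, 25.42 and 17.15 FPKM in aged controls, and 41.99, 40.72 and 26.59 FPKM in young controls. Its fold change in the labelled knockout against aged controls, 1.39 (SE 0.36, limma adjusted p = 0.0715), had the smallest p of any member there, and it was 1.71 (adjusted p = 0.0107) without replicate 2. In aged against young controls it was −0.64 (SE 0.36, adjusted p = 0.335), with no overlap between the groups.

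Mmp9 (ENSMUSG00000017737.2, chr2:164940780-164955850, forward strand) was at 46.33, 5.01 and 231.24 FPKM in the labelled knockout, 4.29, 4.67 and 2.60 FPKM in aged controls, and 16.96, 19.85 and 11.16 FPKM in young controls. The labelled-knockout values spread over a wide range, and replicate 2 lay only just above the aged controls. The fold change against aged controls was 3.09 (SE 1.04, limma adjusted p = 0.144), and 4.46 (SE 0.57, adjusted p = 0.00250) without replicate 2. Aged controls lay below all young controls, with a fold change of −1.80 (SE 1.04, adjusted p = 0.349, and 0.0361 without that library). Against young controls, the labelled knockout differed by 1.29 (SE 1.04, adjusted p = 0.684, and 2.66 with adjusted p = 0.114 without replicate 2).

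Mmp3, stromelysin-1, which cuts proteoglycans and activates other proenzymes, was likewise highest in replicates 3 and 1 of the labelled knockout, at lower levels. It was at 2.93, 0.24 and 45.96 FPKM in the labelled knockout, 0.00, 0.04 and 0.16 FPKM in aged controls, and 2.30, 1.85 and 1.02 FPKM in young controls. The aged values correspond to about 0, 2 and 6 reads. The labelled knockout was higher than aged controls by 2.52 (SE 1.04, limma adjusted p = 0.221), and by 3.67 (adjusted p = 0.0213) without replicate 2, when the 2 libraries left differed widely. Aged controls were all below young controls, at −1.33 (SE 1.04, adjusted p = 0.493). Mmp11, stromelysin-3, did not share this pattern, with 17.86, 15.23 and 22.58 FPKM in the labelled knockout, 28.21, 22.40 and 21.01 FPKM in aged controls, and 26.49, 29.83 and 19.29 FPKM in young controls, and overlapping groups. Mmp10 and Mmp12, stromelysin-2 and macrophage elastase, reached at most 0.33 and 0.01 FPKM.

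**Figure D4:**
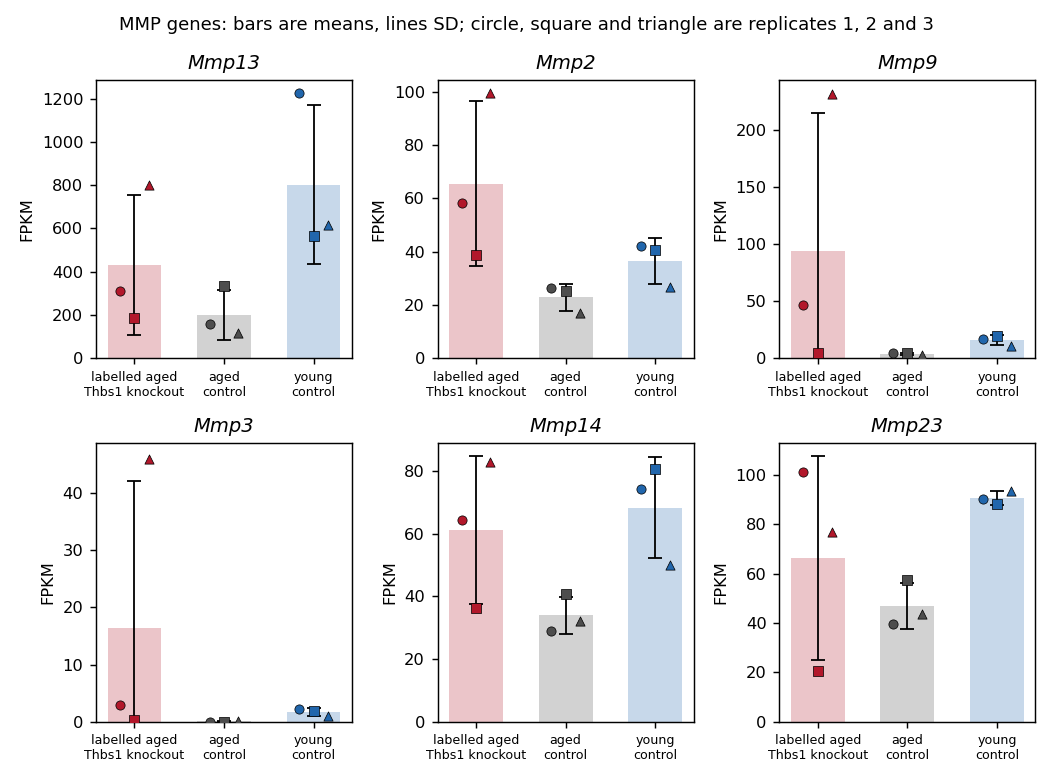
FPKM of 6 MMP genes in each library (points), with group means (bars) and SD (lines), n = 3 per group. For Mmp9 and Mmp3, replicate 3 of the labelled knockout, at 231.24 and 45.96 FPKM, lies far above the other 8 libraries.

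Levels of other cell types' markers also differed between libraries, and their part in the levels of Mmp9, Mmp3 and Mmp13 was not tested. The summed level of 10 chondrocyte markers, all of which passed the filter, was 1105.00, 152.94 and 2991.10 FPKM in the labelled knockout, 13.56, 15.50 and 17.08 FPKM in aged controls, and 168.76, 300.45 and 128.95 FPKM in young controls. Of these 10, 7 rose (limma adjusted p) in the labelled knockout against aged controls, where 1.52% of all genes did. Without replicate 2 all 10 did, where 11.5% of all genes did. The sum of 10 osteoblast markers was 5082.79, 1813.61 and 8390.42 FPKM in the labelled knockout, 1047.19, 1911.22 and 1309.08 FPKM in aged controls, and 7828.50, 7029.65 and 5782.05 FPKM in young controls. Ibsp was its largest part in every library. Of these 10 markers, 4 rose in the labelled knockout against aged controls, and 7 did without replicate 2. Over all 9 libraries both sums were highest in labelled-knockout replicate 3, where Mmp9 and Mmp3 were also highest.

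The 9 osteoclast markers summed to 131.01, 120.64 and 169.23 FPKM in the labelled knockout, 64.73, 93.65 and 79.22 FPKM in aged controls, and 126.31, 132.93 and 148.03 FPKM in young controls, nearly all of it Ctsk. Of these 9, 3 passed the filter, Ctsk, Acp5 and Itgb3. In labelled-knockout replicate 3, where Mmp9 was highest, Ctsk was at 160.77 FPKM, the highest of the 9 libraries. Acp5 (4.08 FPKM) and Itgb3 (4.33 FPKM) were the highest of their group there, but not of the 9 libraries. They reached 5.07 and 7.17 FPKM in aged controls, where Mmp9 was lowest. Ocstamp, Calcr, Dcstamp, Tnfrsf11a and Oscar were at 0 in labelled-knockout replicate 3, and Atp6v0d2 was at 0.05 FPKM. Neutrophil markers, of which 9 of 12 passed the filter, summed to 24.74, 87.42 and 60.82 FPKM in the labelled knockout, 279.84, 94.35 and 246.17 FPKM in aged controls, and 122.38, 187.82 and 317.17 FPKM in young controls. Whether this sum was related to Mmp9 was not tested. The 10 pan-leukocyte markers summed to 5.09, 604.20 and 96.57 FPKM in the labelled knockout, 1140.19, 972.16 and 549.87 FPKM in aged controls, and 5.86, 7.97 and 16.27 FPKM in young controls. Cd52 alone gave 544.91 FPKM of the sum in labelled-knockout replicate 2, and 442.85, 112.58 and 417.27 FPKM in aged controls. Of the 9 of these markers tested, Lcp1, Laptm5, Spi1, Cd37 and Vav1 passed the filter only through the aged controls. The order of the groups is therefore not counted over this list.

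Of the membrane-anchored MMPs, Mmp14, a collagenase at the cell surface that also activates pro-MMP-2, was by far the highest. Mmp14 (ENSMUSG00000000957.11, chr14:54431612-54445364, forward strand) was at 64.43, 36.20 and 82.96 FPKM in the labelled knockout, 28.97, 40.64 and 32.28 FPKM in aged controls, and 74.25, 80.84 and 50.11 FPKM in young controls. All aged controls were below all young controls, with a fold change of −0.97 (SE 0.33, limma adjusted p = 0.133, and 0.0205 without labelled-knockout replicate 2). The labelled knockout was higher than aged controls by 0.77 (SE 0.33, adjusted p = 0.241, and 1.10 with adjusted p = 0.0255 without replicate 2). Mmp24 was at 5.11, 7.24 and 4.86 FPKM in the labelled knockout, 2.83, 4.78 and 3.25 FPKM in aged controls, and 5.69, 6.34 and 6.51 FPKM in young controls. Aged controls lay below both other groups for this gene, with a fold change of −0.66 against young controls (SE 0.24, adjusted p = 0.151). Mmp16 and Mmp17 passed the filter at no more than 2.42 FPKM in any library, while Mmp15 and Mmp25 did not pass it.

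Mmp23, made as a membrane protein and released by cleavage, was at 100.97, 20.50 and 76.97 FPKM in the labelled knockout, 39.64, 57.32 and 43.58 FPKM in aged controls, and 90.13, 88.22 and 93.46 FPKM in young controls. The young libraries lay close together and lay above all aged ones, while labelled-knockout replicate 2 was the lowest of all 9. The fold change of aged against young controls was −0.95 (SE 0.50, limma adjusted p = 0.305, and 0.0126 without labelled-knockout replicate 2). For the labelled knockout against aged controls it was 0.23 (SE 0.50, adjusted p = 0.842), 0.92 (adjusted p = 0.0256) without replicate 2, and below 0 without replicate 1 or 3 (−0.21 and −0.014). Mmp19 was at 6.89, 14.15 and 9.44 FPKM in the labelled knockout, 4.52, 6.34 and 4.66 FPKM in aged controls, and 7.97, 8.08 and 7.04 FPKM in young controls. It lay above all aged controls in the labelled knockout, by 0.81 (SE 0.27, adjusted p = 0.137). The enamel protease Mmp20 and Mmp21, Mmp27 and Mmp28 did not pass the filter.

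The ADAMTS proteases that cut aggrecan or versican were led by Adamts1, at 247.24, 112.70 and 186.26 FPKM in the labelled knockout, 55.06, 115.43 and 70.42 FPKM in aged controls, and 198.38, 100.11 and 89.13 FPKM in young controls. The groups overlapped, with aged control replicate 2 above labelled-knockout replicate 2. The labelled knockout was higher by 1.17 (SE 0.42, limma adjusted p = 0.168, and 1.48 with adjusted p = 0.0394 without replicate 2), and aged against young controls differed by −0.65 (SE 0.42, adjusted p = 0.400). Adamts4, aggrecanase-1, was at 37.45, 10.07 and 31.67 FPKM in the labelled knockout, 5.71, 14.42 and 8.44 FPKM in aged controls, and 31.50, 22.11 and 18.18 FPKM in young controls. Aged controls were all below young controls, with a fold change of −1.29 (SE 0.49, adjusted p = 0.167, and 0.0217 without labelled-knockout replicate 2). The labelled knockout was higher than aged controls by 1.28 (SE 0.49, adjusted p = 0.192, and 1.84 with adjusted p = 0.0130 without replicate 2).

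Adamts5, aggrecanase-2, which lies next to Adamts1 within 108002 bases of chromosome 16, was much lower than its neighbour. It was at 9.55, 14.78 and 6.57 FPKM in the labelled knockout, 4.15, 8.11 and 5.14 FPKM in aged controls, and 9.77, 8.83 and 13.40 FPKM in young controls. Aged controls again lay below all young controls, with a fold change of −0.80 (SE 0.33, limma adjusted p = 0.200). Adamts9 was the member of this group that was lower than young controls in every library from mice 18 months old, with 4.39, 0.92 and 4.16 FPKM in the labelled knockout, 2.95, 3.78 and 3.13 FPKM in aged controls, and 5.84, 6.33 and 8.50 FPKM in young controls. Its fold change was below 0 in aged against young controls, at −0.87 (SE 0.38, adjusted p = 0.225, and 0.0127 without labelled-knockout replicate 2), and in the labelled knockout against young controls, at −1.05 (SE 0.38, adjusted p = 0.510). Adamts15 was at 2.72, 1.54 and 3.81 FPKM in the labelled knockout, 1.81, 1.85 and 1.33 FPKM in aged controls, and 5.0, 3.32 and 3.00 FPKM in young controls. All aged controls were lower than the young ones, at −0.82 (SE 0.28, adjusted p = 0.135, and 0.0246 without labelled-knockout replicate 2). Adamts8 and Adamts20 did not pass the filter.

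The procollagen N-propeptidases trim fibrillar procollagens before fibrils form. Adamts2 was at 99.08, 27.24 and 67.42 FPKM in the labelled knockout, 22.48, 39.25 and 34.91 FPKM in aged controls, and 83.73, 93.87 and 46.89 FPKM in young controls. Every aged control was below every young control, with a fold change of −1.17 (SE 0.47, limma adjusted p = 0.191, and 0.0305 without labelled-knockout replicate 2). The labelled knockout was higher than aged controls by 0.84 (SE 0.47, adjusted p = 0.359, and 1.35 with adjusted p = 0.0336 without replicate 2). Adamts14, a close relative, was at 13.48, 0.56 and 8.38 FPKM in the labelled knockout, 2.09, 3.81 and 3.09 FPKM in aged controls, and 8.84, 6.71 and 4.71 FPKM in young controls. In both genes, replicate 2 of the labelled knockout lay on the other side of the aged controls from replicates 1 and 3, or within their range. For Adamts14 the labelled knockout against aged controls gave 0.60 (SE 0.70, adjusted p = 0.682), 1.57 (adjusted p = 0.0135) without replicate 2, and −0.040 without replicate 1. Adamts3 did not pass the filter.

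Of the proteases that cut cartilage oligomeric matrix protein, Adamts12 was at 1.33, 0.95 and 1.31 FPKM in the labelled knockout, 0.54, 0.64 and 0.30 FPKM in aged controls, and 1.0, 1.37 and 1.25 FPKM in young controls. Aged controls lay below all libraries of both other groups. The fold changes were 0.56 (SE 0.20, limma adjusted p = 0.170, and 0.0452 without replicate 2) in the labelled knockout against aged controls and −0.57 (SE 0.20, adjusted p = 0.146, and 0.0384 without that library) in aged against young controls. Because its FPKM are near the pseudocount of 1, this scale understates its change. Adamts7 overlapped between all groups, as did Adamts10, a protein of fibrillin microfibrils, at 8.34 to 20.21 FPKM. The ADAMTS-like genes gave small fold changes in aged against young controls. Adamtsl4 and Adamtsl5 were the 2 members with fold changes above 0 (0.11 and 0.0060), and Adamtsl3 was at −0.38. They were at 3.04 to 12.04 FPKM in all libraries.

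All TIMPs passed the filter. Timp1 (ENSMUSG00000001131.11, chrX:20870166-20874735, forward strand) was at 31.15, 98.00 and 97.51 FPKM in the labelled knockout, 26.69, 39.64 and 27.90 FPKM in aged controls, and 97.14, 86.96 and 93.98 FPKM in young controls. Aged controls were all below young controls, with a fold change of −1.55 (SE 0.41, limma adjusted p = 0.0716, and 0.0203 without labelled-knockout replicate 2). Replicates 2 and 3 of the labelled knockout lay above the highest young control and replicate 1 within the aged range, for a fold change against aged controls of 1.09 (SE 0.41, adjusted p = 0.187), which was 1.63 (adjusted p = 0.0315) without replicate 1. Here, unlike for Mmp9, replicate 2 was not the library nearest to the aged controls.

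Timp4 (ENSMUSG00000030317.8, chr6:115241892-115252205, reverse strand) gave the smallest p of any member in aged against young controls. It was at 12.19, 0.89 and 5.89 FPKM in the labelled knockout, 0.71, 1.69 and 1.87 FPKM in aged controls, and 7.99, 10.44 and 15.96 FPKM in young controls. No aged control came near a young one, and the fold change was −2.35 (SE 0.62, limma adjusted p = 0.0675, and 0.00428 without labelled-knockout replicate 2). For the labelled knockout against aged controls it was 1.23 (SE 0.62, adjusted p = 0.303, and 2.01 with adjusted p = 0.0116 without replicate 2). Timp2, the most abundant inhibitor and also a partner of MMP-14 in the activation of pro-MMP-2, was at 208.48, 88.99 and 237.68 FPKM in the labelled knockout, 96.41, 136.13 and 112.87 FPKM in aged controls, and 191.81, 209.16 and 134.61 FPKM in young controls. The groups overlapped in both comparisons, and it passed only in the labelled knockout against aged controls without replicate 2 (0.96, adjusted p = 0.0353). Timp3, which also inhibits ADAMTS proteases, was at 17.83, 16.43 and 30.79 FPKM in the labelled knockout, 6.45, 14.69 and 9.82 FPKM in aged controls, and 18.40, 11.70 and 10.35 FPKM in young controls. It lay above all aged controls in the labelled knockout, by 1.01 (SE 0.36, adjusted p = 0.160).

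**Figure D5:**
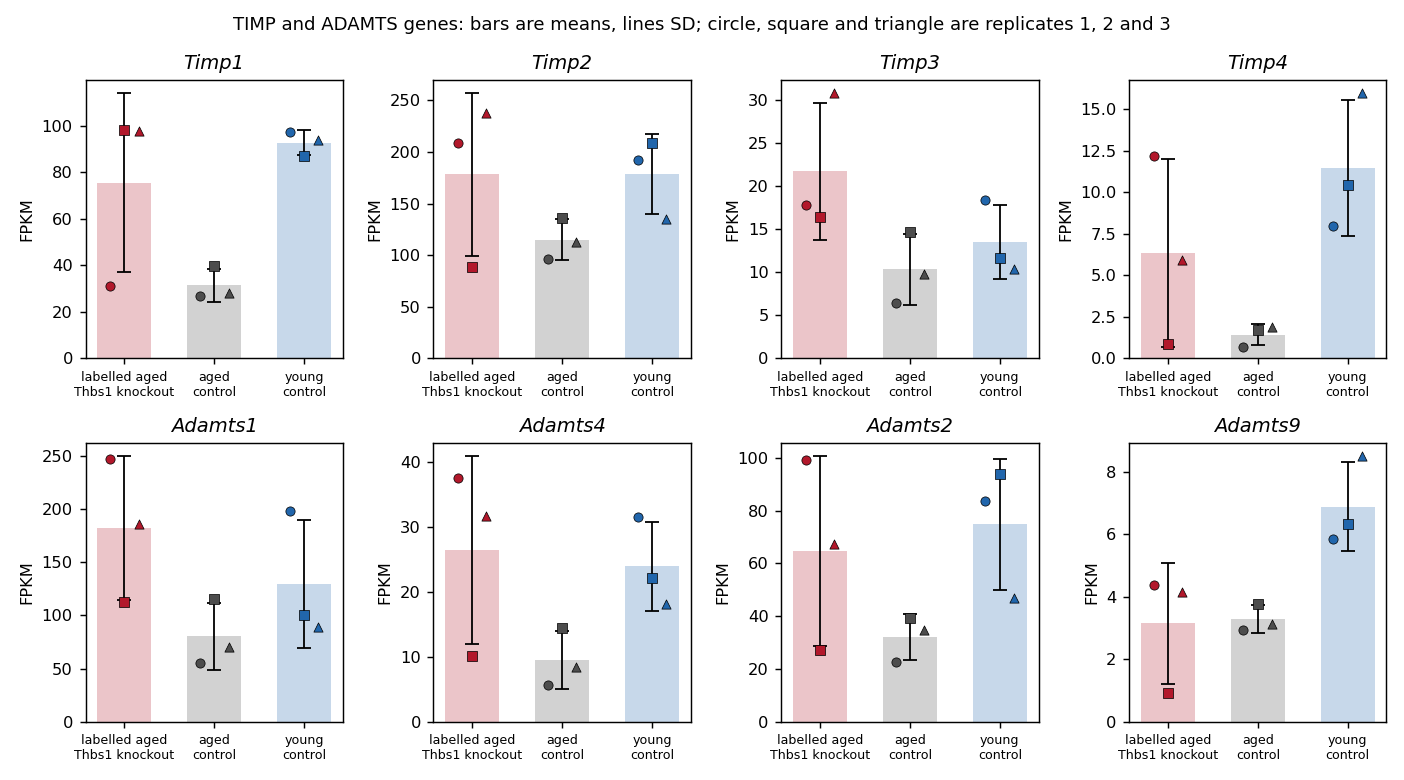
FPKM of TIMP and ADAMTS genes in each library (points), with group means (bars) and SD (lines), n = 3 per group. For Timp1 and Timp4, all aged controls lie below all young controls, and labelled-knockout values reach from the aged range to the young range.

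Summed over their genes, MMPs exceeded TIMPs in FPKM in every library. The ratio was 2.29, 1.60 and 3.71 in the labelled knockout, 2.27, 2.58 and 1.59 in aged controls, and 4.75, 2.66 and 3.28 in young controls, and Mmp13 gave 50.2%, 57.5% and 57.9%, then 53.2%, 66.9% and 47.5%, and then 81.9%, 66.7% and 73.7% of the MMP sum in those libraries. With Mmp13 left out the ratio was 1.14, 0.682 and 1.56 in the labelled knockout, 1.06, 0.855 and 0.837 in aged controls, and 0.858, 0.886 and 0.863 in young controls. The 3 young controls were thus nearly equal by this measure, within the range of the aged controls, and the labelled-knockout libraries lay on both sides. These are ratios of RNA levels, were chosen after the values were seen and were not tested.

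Against young controls, the labelled knockout showed no direction shared by the members. Of 29 members, 11 fold changes were above 0 and 18 below, beside 4093 above and 7895 below of all 11988 genes. The members' median was −0.09, beside −0.16 over all genes, and with median-ratio rescaling 17 members were above 0 and 12 below. The count past an adjusted p of 0.05 was 0 (limma), where 0.00834% of all genes were higher and 0.0167% lower, 0.0250% in all. At an unadjusted p under 0.05 the count was 0 higher and 2 lower, Adamts9 and Mmp8, where 2.11% of all genes were higher and 6.52% lower, 8.63% in all. The same 2 members were below all young controls in all 3 labelled-knockout libraries, as were 13.4% of all genes, and 0 were above, as were 4.08%. Without replicate 2 of the labelled knockout, 0 members passed, while 0.245% of all genes were higher and 0.0677% lower. Mmp8 differed by −0.91 (SE 0.35, adjusted p = 0.531), and Mmp2 by 0.75 (SE 0.36, adjusted p = 0.603). Intervals were wide: for Mmp13 the 95% interval ran from −2.38 to 0.25, and for Timp4 from −2.50 to 0.27.

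The spread between libraries of a group was larger for members at the median than for all genes. The median coefficient of variation over the 29 members was 47.3% in the labelled knockout, 28.4% in aged controls and 27.7% in young controls, beside 41.8%, 20.9% and 18.6% over all genes tested. It exceeded 100% for 4 members in the labelled knockout, Mmp3, Mmp8, Mmp9 and Mmp16, for 1 in aged controls, Mmp3, and for 0 in young controls.

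Genes that act with these enzymes were taken from 3 lists. Of 18 genes for activation and clearance, 14 were tested and 0 passed in aged against young controls or in the labelled knockout against aged controls (limma adjusted p). In these comparisons 4.04% and 3.48% of all genes passed. Plat, the tissue-type activator of plasminogen, was at 1.91, 3.42 and 6.50 FPKM in the labelled knockout, 1.21, 1.30 and 0.77 FPKM in aged controls, and 2.01, 2.28 and 1.32 FPKM in young controls. All 3 labelled-knockout values were above the aged ones, with a fold change of 1.14 (SE 0.34, limma adjusted p = 0.109). Without labelled-knockout replicate 2, 4 of the 14 passed as lower in aged than in young controls and 5 as higher in the labelled knockout than in aged controls, in a fit where 17.9% of all genes were lower and 11.5% higher. Pcsk5, a proprotein convertase, Bsg, an inducer of MMPs, and Sdc4, a cell surface proteoglycan, were among both.

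Of 18 matrix substrates, 14 were tested. In aged against young controls 4 were lower (limma adjusted p), where 1.47% of all genes were. Col1a1 fell by 2.63 (adjusted p = 0.0390), Col1a2 fell by 1.94 (0.0409), Spp1 fell by 2.02 (0.0337) and Bgn fell by 1.02 (0.0450) on the log2 scale. These encode both chains of type I collagen, osteopontin and biglycan. Against aged controls, 4 rose in the labelled knockout, where 1.52% of all genes did. These were Col1a1 by 2.90 (limma adjusted p = 0.0311), Col1a2 by 2.12 (0.0325), Col3a1 by 1.46 (0.0281) and Col2a1, the cartilage collagen, by 5.37 (0.0337). The Col1a1 RNA was at 955.59, 502.31 and 2061.65 FPKM in the labelled knockout, 137.72, 163.99 and 102.75 FPKM in aged controls, and 1444.29, 923.97 and 423.90 FPKM in young controls. These calls rested on few libraries. Leaving out any 1 of the 6 controls ended the 4 falls, with adjusted p between 0.0616 and 0.281. Leaving out labelled-knockout replicate 1 also ended those of Col1a2 (adjusted p = 0.0511) and Bgn (0.0639), and leaving out replicate 3 that of Bgn (0.0687). The 4 rises held without labelled-knockout replicate 2, and that of Col3a1 also without young control replicate 3 (adjusted p = 0.0493). They were lost without any 1 of the others, with adjusted p between 0.0502 and 0.202. Without a filter on low values no call held (adjusted p from 0.0574 to 0.151). With immunoglobulin genes left out none of the 4 falls did (adjusted p from 0.0749 to 0.951, with Bgn at 0.035 on the other side of 0), nor did the rises of Col1a2 (0.0541) and Col3a1 (0.204). Quantile normalization ended the falls of Col1a1, Col1a2 and Bgn (adjusted p from 0.0506 to 0.0678) and the rise of Col1a2 (0.0588), median-ratio rescaling the fall of Bgn (0.138, and 0.104 without immunoglobulin genes scaled by reads), and a fit of the 2 groups alone all 4 rises (adjusted p from 0.119 to 0.135). Without labelled-knockout replicate 2, 9 of 13 tested substrates were lower in aged controls (17.9% of all genes) and 8 higher in the labelled knockout (11.5%).

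Among 9 membrane-bound ADAM proteases, of which 7 were tested, Adam8, known from leukocytes and osteoclasts, was at 0.21, 0.05 and 0.53 FPKM in the labelled knockout, 23.26, 43.94 and 2.65 FPKM in aged controls, and 0.18, 0.67 and 0.50 FPKM in young controls. All 3 aged controls lay above the other 6 libraries. The gene passed the filter only through the aged controls, so no test is given for it. The summed pan-leukocyte markers were also highest in aged controls, except for labelled-knockout replicate 2, where most of the sum was Cd52. The part of these markers in the result was not tested. Adam12 fell by 1.16 (limma adjusted p = 0.0312) in aged against young controls. The call of Adam12 was lost without any 1 young control or without aged control replicate 1 or 3 (adjusted p from 0.0754 to 0.228). It was also lost without a filter (0.0568), with median-ratio rescaling (0.0734) and with immunoglobulin genes left out, at a fixed FPKM sum (fold change −0.26, adjusted p = 0.631) or scaled by reads (0.0547).

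Some values are uncertain because exons of a gene on the other strand overlap those of the member, and it is not stated whether counting used strand. Members that passed the filter and for which this holds include Timp3 (1733 bases shared with Syn3), Timp4 (90 with Syn2), Adamts4, Adamts7 (122 with Tbc1d2b), Adamts9 (shared with A730049H05Rik and Gm15737), Mmp11 (155 with Chchd10), Mmp19 (shared with Tmem198b and Gm47093) and Mmp24 (637 with BC029722). Reads from the overlaps cannot be assigned to either gene.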

How the data were processed

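The authors deposited 1 table of FPKM per gene, rounded to 2 decimals, for 9 libraries, as the file headers and values show. The submitters' processing notes list GRCm38 (mm10) as the build and edgeR, STAR and FastQC 0.11.5 as tools, with no role for any. The sources used here do not give the annotation or the strand setting of the counting. Columns were matched to samples by title and groups came from the genotype label. Symbols were matched to GENCODE M21 (30128 of 30579 genes, 98.5%).

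The test was limma 3.58.1 (R 4.3.3) with an intensity trend on log2(FPKM + 1), for 11988 genes (3 or more libraries at 1 FPKM or above), in a single fit of the 9 libraries (6 residual degrees of freedom). Benjamini-Hochberg adjustment ran over all genes within each comparison, and 0.05 was the threshold. Fold changes are the first group minus the second on this scale, which understates changes of low genes (n = 3 per group). Thbs1 also had an exact permutation test, two-sided. The procedure was run on simulated data with the same normal spread for every gene and library. The libraries here differ in spread, so that run cannot show how the test behaves with an outlying library.

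Depth was estimated from the step between low FPKM values times exon length; 94.0% to 100% of low values of short genes were whole reads within 0.1. Correlations of same-numbered libraries' deviations were of both signs, which cannot show whether the numbers pair libraries. The main fit used no pairing. The alternatives left out each library, the filter, the trend or the immunoglobulin genes, or used 5 FPKM as the minimum, 0.1 as the pseudocount, median-ratio or quantile scaling, 2 groups alone, or a replicate block.

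Members and lists were chosen with earlier results of these data known. Members were described by a rule: the 15 highest by mean FPKM, the 6 with the smallest p in each comparison all TIMPs, and for other lists the genes that passed and up to 4 more by p; others are named after their values were seen. Promoter sequences and figures were handled with Python 3.11.15, numpy 2.4.6, pandas 2.3.3 and matplotlib 3.10.9.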

Additional observations from a re-analysis of the deposited data

How the results depend on the processing

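With 9 libraries, genes called in aged against young controls numbered 484 (308 higher, 176 lower) and in the labelled knockout against aged controls 417 (182 higher, 235 lower). Without a filter these counts were 138 and 92, with the replicate number as a block 120 and 64, in fits of the 2 groups alone 2155 and 14, and with immunoglobulin genes left out 1132 (1120 higher, 12 lower) and 1114 (61 higher, 1053 lower). A minimum of 5 FPKM gave 199 in the second comparison, and median-ratio rescaling gave splits of 375 higher to 60 lower and 155 to 376. Median-ratio rescaling without labelled-knockout replicate 2 gave 1258 and 1344, and 38 against young controls, where 3 were called at first. With 1 library left out at a time the counts ran from 4 to 2729, from 13 to 1895 and from 2 to 37. Members called, 0 at first, numbered 0 to 13 in aged against young controls and 0 to 12 in the labelled knockout against aged controls when 1 library was left out. Quantile normalization called 1 in each, Timp4 and Adamts12. Median-ratio rescaling called 1, Mmp2, in the second, and together with leaving out labelled-knockout replicate 2 it called 1, Timp4, and 6. The 2 control groups alone called 13. No other alternative called a member, and the replicate block called 0 in every comparison and ended the calls of Col1a1, Col1a2, Col2a1, Col3a1, Bgn, Spp1 and Adam12 (adjusted p from 0.0828 to 0.131).

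Leaving out immunoglobulin genes at a fixed FPKM sum moved the median of all genes in aged against young controls to 0.61, beside −0.28 at first. There, 20 of 31 members were above 0, against 2 of 29 at first. Those that reversed included Timp2 (0.43), Timp3 (0.60), Mmp2 (0.39), Mmp14 (0.062), Mmp23 (0.087), Mmp24 (0.22), Adamts1 (0.39), Adamts5 (0.13), and Adamts9 (0.0073), and Bgn (0.035) and Thbs1 (0.21) reversed too. In the labelled knockout against aged controls 14 of 31 members were below 0, against 3 of 29, among them Timp2 (−0.16), Mmp23 (−0.45) and Adamts14 (−0.065). Relative to the median of all genes, the members' median stayed lower, at 0.13, and scaling by reads instead, chosen after seeing the data, gave −0.40 beside −0.02 for all genes. With 1 library left out at a time, fold changes of the labelled knockout against aged controls ran from −0.21 to 0.92 for Mmp23, which was below 0 without replicate 1 or 3 (−0.014), from −0.040 to 1.57 for Adamts14 and from −0.33 to 0.094 for Thbs1, both on the other side of 0 without replicate 1. Those of Thbs1 in aged against young controls ran from −0.94 to −0.76. Thbs1 in aged against young controls, −0.83, passed in the fit of those groups alone (adjusted p = 0.0230) and without labelled-knockout replicate 2 (adjusted p = 0.0220). The cause was not tested. Correlations of same-numbered libraries' deviations ran from −0.29 to 0.30, and those of other pairs from −0.41 to 0.37. They cannot decide whether the numbers pair the libraries, because deviations within a group of 3 are not independent. Genes near the floor of 3 reads cannot be told from 0.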
